A study of Mus musculus with 30 samples.

Results

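Lung macrophage genes and the 2 mouse lysozyme genes were followed in whole mouse lung over 6 d in low oxygen. The set held 10 genes: Lyz1, Lyz2, Chil3, Siglecf, Ctsk, Marco, Mrc1, Cd68, Itgax and Arg1. Every probe set annotated to exactly 1 of these symbols was taken, which gave 14 of the 36899 probe sets on the 3 Affymetrix array types A, B and C, which together name 15965 genes. Of the 14, 10 lay on the A arrays, 4 on the C arrays and 0 on the B arrays. The genes were selected on measured values, but which values is not stated exactly. The changes at 6 d against Norm and between early and late times in low oxygen were treated as used. Values in those comparisons are therefore given as descriptions.

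Total RNA came from the lungs of mice (Mus musculus) held in a chamber at 10% oxygen for 10 h, 2 d, 4 d or 6 d, or of a group titled Norm. The labels give no strain, age, sex or genotype, do not spell out Norm, and attach to the Norm samples a description that speaks of a mild rejection; the titles were followed. A group held 2 samples (1a and 1b), and 1 array of each type was run per sample. The array titled Norm 1a of the A type stands among the B arrays with values unlike theirs and was left out, so that 29 of 30 arrays were used and Norm has 1 array (1b) on A.

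Alveolar macrophages live on the inner surface of the air spaces, where they take up surfactant, dust and microbes, and they carry scavenger and lectin receptors together with a large load of lysosomal enzymes. Lysozyme cuts the cell wall of bacteria. The mouse has a pair of lysozyme genes side by side: Lyz2 encodes the lysozyme of macrophages and neutrophils, which alveolar type 2 cells also make, and Lyz1 encodes the lysozyme best known from the Paneth cells of the gut.

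In RefSeq (GRCm38.p6) Lyz1 lies on chromosome 10 from 117287795 to 117292868 and Lyz2 from 117277541 to 117282272, both on the minus strand, with 5522 bases between them. The 250 bases before each start are shown because both genes have the same sequence next to the start, while the changes read by their probe sets were of different size, a difference that was not tested. Capitals mark the 50 bases nearest the start, the longest run that both share.

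Lyz1, chr10:117292869-117293118, minus strand: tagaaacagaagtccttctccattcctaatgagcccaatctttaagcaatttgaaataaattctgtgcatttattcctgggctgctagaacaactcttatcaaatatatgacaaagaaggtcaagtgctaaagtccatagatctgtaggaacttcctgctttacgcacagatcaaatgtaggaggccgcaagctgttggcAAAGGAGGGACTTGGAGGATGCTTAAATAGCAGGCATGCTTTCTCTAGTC

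Lyz2, chr10:117282273-117282522, minus strand: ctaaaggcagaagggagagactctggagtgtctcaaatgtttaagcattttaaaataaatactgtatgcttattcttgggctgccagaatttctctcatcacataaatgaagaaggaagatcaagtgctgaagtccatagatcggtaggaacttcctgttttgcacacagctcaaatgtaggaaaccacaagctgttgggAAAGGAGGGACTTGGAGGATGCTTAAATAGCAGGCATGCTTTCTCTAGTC

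Of 248 aligned bases, 200 were identical (80.6%). Identity was 92.0% in the 100 bases nearest the start and 64.7% in the 100 farthest. The motif GAGGAA, a core read by the myeloid factor PU.1, was searched on both strands of the same window. It was found for 5 of the 9 members in the RefSeq table (Cd68, Ctsk, Marco, Mrc1 and Siglecf) and in 23.3% of all 32851 windows. Neither lysozyme window held these letters, which says nothing of the factor's binding.

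Values are the deposited intensities of single arrays, which share a common trimmed mean. Values under the 40th percentile of an array type were set to that floor (236.05 on A and 200.93 on C), and a probe set was tested if it stood above the floor on at least 2 arrays. This left 10 member probe sets of 9 genes, 7 on A and 3 on C. Changes are log2 differences between group means with the standard error (SE) of the limma fit, and p-values were adjusted over all 25801 probe sets tested, with a threshold of 0.05. Nothing in the labels shows whether 1a and 1b are different animals; p-values then measure only how far these samples spread, and that spread may be technical. In whole lung RNA, fewer cells of a type and less RNA per cell cannot be told apart.

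The lung tissue markers fixed for the check, among them Sftpc, Scgb1a1, Ager and Pecam1, were all measured (9 of 9 tested). Of 44 pan-macrophage and monocyte genes found on the arrays, 37 could be tested, and 7 (Aif1, Fcer1g, Fcgr3, Fcna, Itgam, Msr1 and Ncf1) could not; Adgre1, which encodes the macrophage marker F4/80, was above the floor on 2 of 9 A arrays. Among those detected, the complement gene C1qa lay between 1291 and 2151, the growth factor receptor gene Csf1r between 1214 and 1893 and Mpeg1 between 1889 and 4186 on the 9 A arrays. Of the alveolar macrophage markers, Fabp4 (322 to 646) and Car4 (2289 to 3239) stood above the floor on every A array, but Marco and Pparg did so on 0 of 9. The lung is also rich in vessels, and endothelial cells express Fabp4 and Car4 as well. The label of lung macrophage genes thus rests on part of its markers in these data.

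The 2 d samples stood apart in RNA quality. Gapdh, a control read near both ends of its transcript, gives a 3' to 5' signal ratio, which rises as RNA is degraded or incompletely copied. This ratio was 3.64 to 4.60 on the 6 arrays of 2 d and 0.786 to 1.68 on the other 23. Its median was 1.52 at 6 d and 1.02 over Norm, 10 h and 4 d. The same ratio of actin was 3.64 to 4.98 at 2 d, 0.474 to 1.66 at 6 d and 0.0272 to 0.926 in Norm, 10 h and 4 d. The part of RNA quality in the 6 d values was not tested. By accession number, the 2 d and 6 d arrays were deposited together and apart from the rest. Among the Norm, 10 h and 4 d arrays, those of the A type stood apart from those of the B and C types. The labels do not say whether this marks a batch.

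Lyz1 spanned the widest range of the members on the log2 scale. On the C arrays its intensity was 10890 and 6661 in Norm (1a, then 1b), 7950 and 6315 at 10 h, 2489 and 1140 at 2 d, 12860 and 10212 at 4 d, and 33033 and 29448 at 6 d. Both 2 d arrays lay below every other array and both 6 d arrays above every other, while Norm overlapped with 10 h and with 4 d. By group mean the order from high to low was 6 d at 31241 ± 2535 (SD, n = 2), 4 d at 11536 ± 1872, Norm at 8775 ± 2990, 10 h at 7133 ± 1156 and 2 d at 1815 ± 954.

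**Figure D1:**
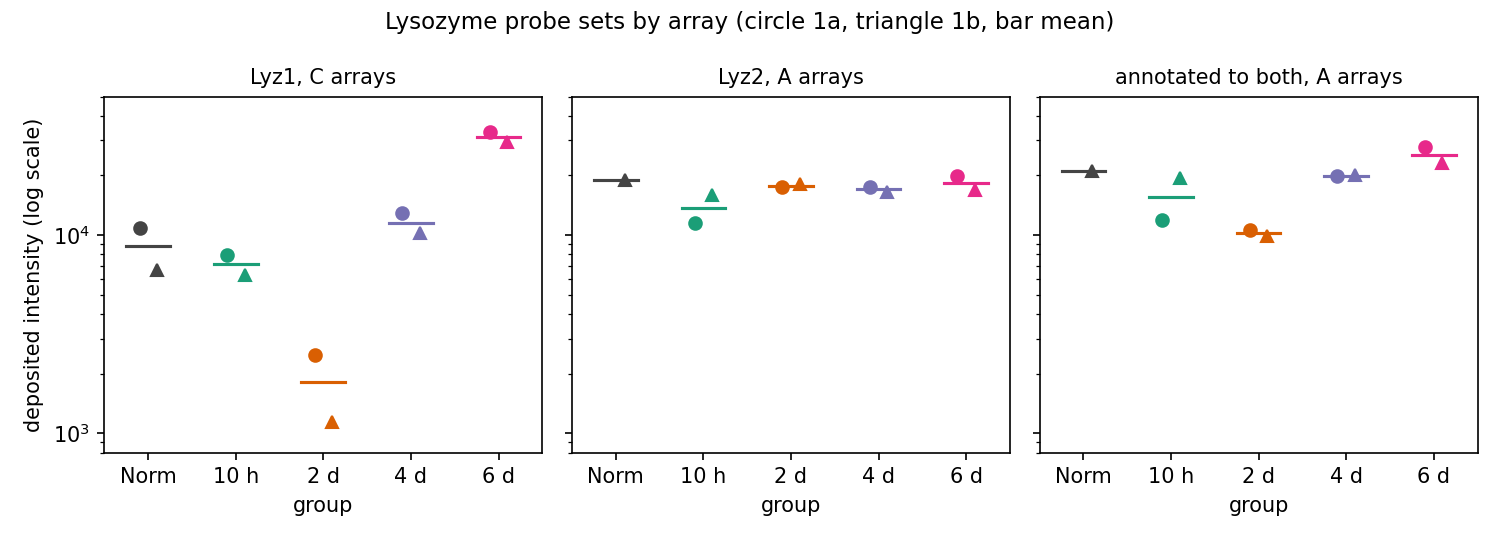
Deposited intensity (log scale) of the lysozyme probe sets on each array, by group, with circles for 1a, triangles for 1b and bars for group means. Lyz1 is lowest on both 2 d arrays (2489 and 1140) and highest on both 6 d arrays (33033 and 29448), Lyz2 lies between 11478 and 19879, and the probe set annotated to both genes between 9851 and 27789.

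At 2 d Lyz1 fell by 2.34 ± 0.36 on the log2 scale against Norm, 5.06-fold lower (adjusted p = 0.0212, limma; 95% interval -3.14 to -1.54). Of the 8809 probe sets tested on C, 12 (0.136%) fell as far or further, itself included. It was the 1 of 10 member probe sets past the threshold at 2 d, where 1.86% of all probe sets tested passed. The Norm and 2 d arrays also entered the comparisons treated as used in the choice of genes, so this call is not taken as independent of that choice. On the C arrays the Gapdh ratio was 4.43 and 3.68 at 2 d and 0.815 and 1.33 in Norm, and the part of RNA quality in the result was not tested. The call ended when Norm 1a (adjusted p = 0.0627), 10 h 1a (0.0507), 2 d 1b (0.0882), 6 d 1a (0.0539) or 6 d 1b (0.0514) was left out, without the filter on dim probe sets (0.0798) and when Norm and 2 d were fitted alone (0.0899), while the change stayed between -2.90 and -1.77.

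At 10 h Lyz1 differed from Norm by -0.27 ± 0.36 (adjusted p = 0.999, 95% interval -1.07 to 0.54) and at 4 d by 0.43 ± 0.36 (adjusted p = 0.895, interval -0.37 to 1.23). Neither passed the threshold, and the sign at 10 h turned when Norm 1a was left out (0.09). At 6 d the change against Norm was 1.87 ± 0.36, 3.66-fold, and 20 of the 8809 C probe sets (0.227%) were as high or higher. Between 2 d and 6 d, within the arrays deposited together, the fitted change of Lyz1 was 4.21 ± 0.36, 18.5-fold higher at 6 d (95% interval 3.41 to 5.01). No other C probe set had a larger positive change there. Those 2 groups also enter the comparison of early and late times, which was treated as used in the choice of genes, so no p-value is given. Between 10 h and 4 d, the other pair of that comparison, the change was 0.69 ± 0.36. The mean of 4 d and 6 d was 2.45 ± 0.25 above that of 10 h and 2 d.

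**Figure D2:**
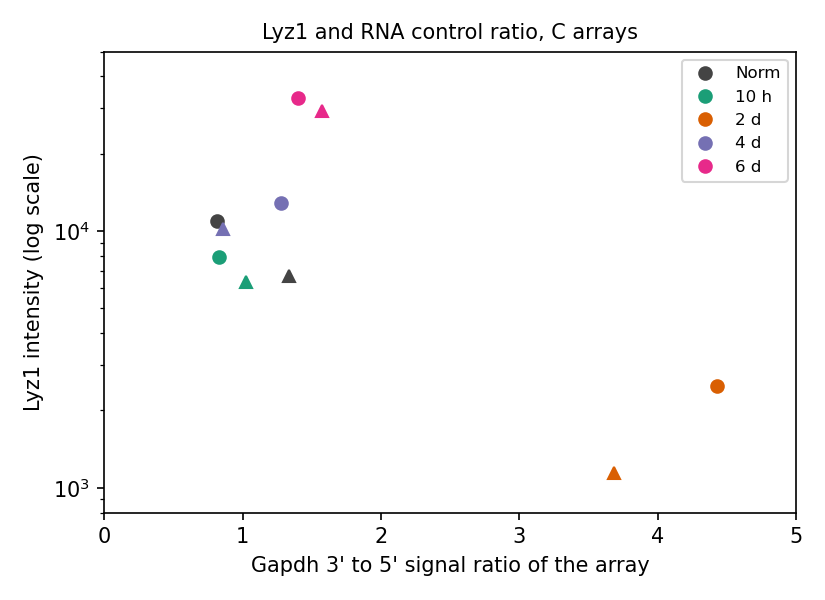
Lyz1 intensity (log scale) on each C array against the 3' to 5' signal ratio of Gapdh on the same array, coloured by group. The 2 d arrays stand apart on both axes (ratios of 4.43 and 3.68), and the 6 d arrays, with ratios of 1.40 and 1.58, have the highest Lyz1 values.

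The Lyz1 probe set carries the suffix f, which marks probes shared within a family of similar sequences, so signal of Lyz2 or of other near copies cannot be told apart from that of Lyz1 by this probe set. The other Lyz1 probe set (suffix r, on C) was above the floor on 1 of 10 arrays, at 305 on 10 h 1a, and between 11.03 and 150 on the others; it was not tested. It gives no second reading of the swing.

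No change of Lyz2 passed the test. On the A arrays its intensity was 18864 in Norm 1b, 11478 and 15915 at 10 h, 17434 and 18003 at 2 d, 17478 and 16544 at 4 d, and 19879 and 16815 at 6 d. The 10 h arrays were the lowest, and the single Norm array lay inside the range of the 6 d arrays. Changes against Norm were -0.48 ± 0.30 at 10 h (adjusted p = 0.910), -0.09 ± 0.30 at 2 d (0.928), -0.15 ± 0.30 at 4 d (0.979) and -0.05 ± 0.30 at 6 d. With quantile normalization the change was -0.17 at 10 h and -0.48 at 2 d, so the order of these times depended on the normalization.

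The 95% intervals of Lyz2 ran from -0.79 to 0.61 at 2 d and from -0.74 to 0.65 at 6 d, so these data do not show that Lyz2 stayed constant. Between 2 d and 6 d Lyz2 differed by 0.05 ± 0.25 (interval -0.52 to 0.61), where Lyz1 differed by 4.21. Lyz1 was read on C and Lyz2 on A, and the difference between the 2 genes was not tested within an array. The other Lyz2 probe set was above the floor on 1 of 9 arrays (12.3 to 242) and was not tested.

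A further probe set on A is annotated to both lysozymes and is no member. It read 20972 in Norm 1b, 11869 and 19418 at 10 h, 10638 and 9851 at 2 d, 19805 and 19993 at 4 d, and 27789 and 23143 at 6 d. Its 2 d arrays were the lowest and its 6 d arrays the highest. It differed by -1.03 ± 0.35 at 2 d against Norm (adjusted p = 0.157, limma) and by 1.31 ± 0.28 between 2 d and 6 d. Neither change of this probe set passed the threshold, in samples also treated as used in the choice of genes. At 4 d against Norm it differed by -0.08 ± 0.35, where Lyz1 differed by 0.43 ± 0.36; neither passed.

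Chil3 encodes a chitinase-like protein that alveolar macrophages secrete. It read 4801 in Norm 1b, 4557 and 4470 at 10 h, 5973 and 5449 at 2 d, 5431 and 4908 at 4 d, and 8609 and 6335 at 6 d. Both 6 d arrays lay above all others, and they were also the pair farthest apart. Against Norm the change was -0.09 ± 0.22 at 10 h, 0.25 ± 0.22 at 2 d (adjusted p = 0.585), 0.10 ± 0.22 at 4 d (adjusted p = 0.981, and -0.03 with arrays scaled to a common median) and 0.62 ± 0.22 at 6 d, 1.54-fold.

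Siglecf, a sialic acid binding lectin on alveolar macrophages and eosinophils, was low at first. On C it read 251 and 254 in Norm, 329 and 165 (under the floor) at 10 h, 366 and 463 at 2 d, 783 and 411 at 4 d, and 666 and 654 at 6 d. All 2 d, 4 d and 6 d arrays lay above both Norm arrays. The changes against Norm were 0.03 ± 0.45 at 10 h, 0.71 ± 0.45 at 2 d (adjusted p = 0.438), 1.17 ± 0.45 at 4 d (adjusted p = 0.735) and 1.39 ± 0.45 at 6 d. The 2 d and 4 d changes did not pass the test, and the 4 d arrays differed by nearly the size of the change. Its probe set (suffix i) holds fewer probes than usual. Of 6 eosinophil genes found on the arrays, 5 (Epx, Prg2, Prg3, Ccr3 and Il5ra) were under the floor on every A array, and Ptgdr2 was above it on all 9 (625 to 809).

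The scavenger receptor Marco was under the floor on all 9 A arrays, from 22.9 to 142, and was not tested. Mrc1, the mannose receptor, read 535 in Norm 1b, 657 and 503 at 10 h, 527 and 617 at 2 d, 716 and 792 at 4 d, and 662 and 617 at 6 d. Its 4 d arrays were the highest. The single Norm array lay within the range of 10 h and of 2 d, but below both 6 d arrays. The change at 4 d was 0.49 ± 0.30 (adjusted p = 0.883), which did not pass.

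Itgax, the integrin chain known as CD11c, did not pass the test at any time against Norm. It read 1062 in Norm 1b, 1287 and 1225 at 10 h, 853 and 945 at 2 d, 1216 and 1044 at 4 d, and 1086 and 922 at 6 d. The 10 h arrays were the highest and the 2 d arrays among the lowest, with changes of 0.24 ± 0.23 (adjusted p = 0.951) and -0.24 ± 0.23 (adjusted p = 0.610) against Norm. At 6 d the change was -0.09 ± 0.23, which turned to 0.03 without 6 d 1b.

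Cd68 encodes a glycoprotein of the lysosome and endosome membrane. It read 759 in Norm 1b, 613 and 657 at 10 h, 740 and 737 at 2 d, 788 and 787 at 4 d, and 997 and 1103 at 6 d. The levels stood in the order of time from 10 h to 6 d, with no overlap between neighbouring times. Changes against Norm were -0.26 ± 0.24 at 10 h (adjusted p = 0.955), -0.04 ± 0.24 at 2 d (0.975), 0.05 ± 0.24 at 4 d (1, and -0.08 with arrays scaled to a common median) and 0.47 ± 0.24 at 6 d, 1.38-fold. The suffix s of this probe set marks probes that several transcripts share. The other Cd68 probe set was under the floor on 9 of 9 arrays.

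Ctsk, the collagen-cutting cysteine protease of osteoclasts and of some macrophages and fibroblasts, had probe sets that disagreed. The A probe set read 543 in Norm 1b, 734 and 666 at 10 h, 763 and 958 at 2 d, 1135 and 591 at 4 d, and 1079 and 1068 at 6 d. Every low-oxygen array lay above the single Norm array, with a change of 0.36 ± 0.38 at 10 h, 0.65 ± 0.38 at 2 d (adjusted p = 0.404), 0.59 ± 0.38 at 4 d (adjusted p = 0.883) and 0.98 ± 0.38 at 6 d.

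The C probe set of Ctsk (suffix r) read 420 and 288 in Norm, 201 and 65.7 at 10 h, 216 and 211 at 2 d, 216 and 263 at 4 d, and 291 and 223 at 6 d. Its mean was highest in Norm, although 6 d 1a lay above Norm 1b, and its changes were -0.79 ± 0.25 at 10 h (adjusted p = 0.605), -0.71 ± 0.25 at 2 d (0.164), -0.55 ± 0.25 at 4 d (0.820) and -0.45 ± 0.25 at 6 d. The probe sets had opposite signs at all 4 times, and no direction is given for Ctsk against Norm.

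Arg1, the arginase of alternatively activated macrophages, was near the floor of 236.05. It read 155 in Norm 1b, 138 and 113 at 10 h, 243 and 274 at 2 d, 182 and 272 at 4 d, and 285 and 206 at 6 d. All low values are bounds only. The 2 d arrays, the one group wholly above the floor, gave a log2 change of at least 0.13 against Norm (adjusted p = 0.790).

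**Figure D3:**
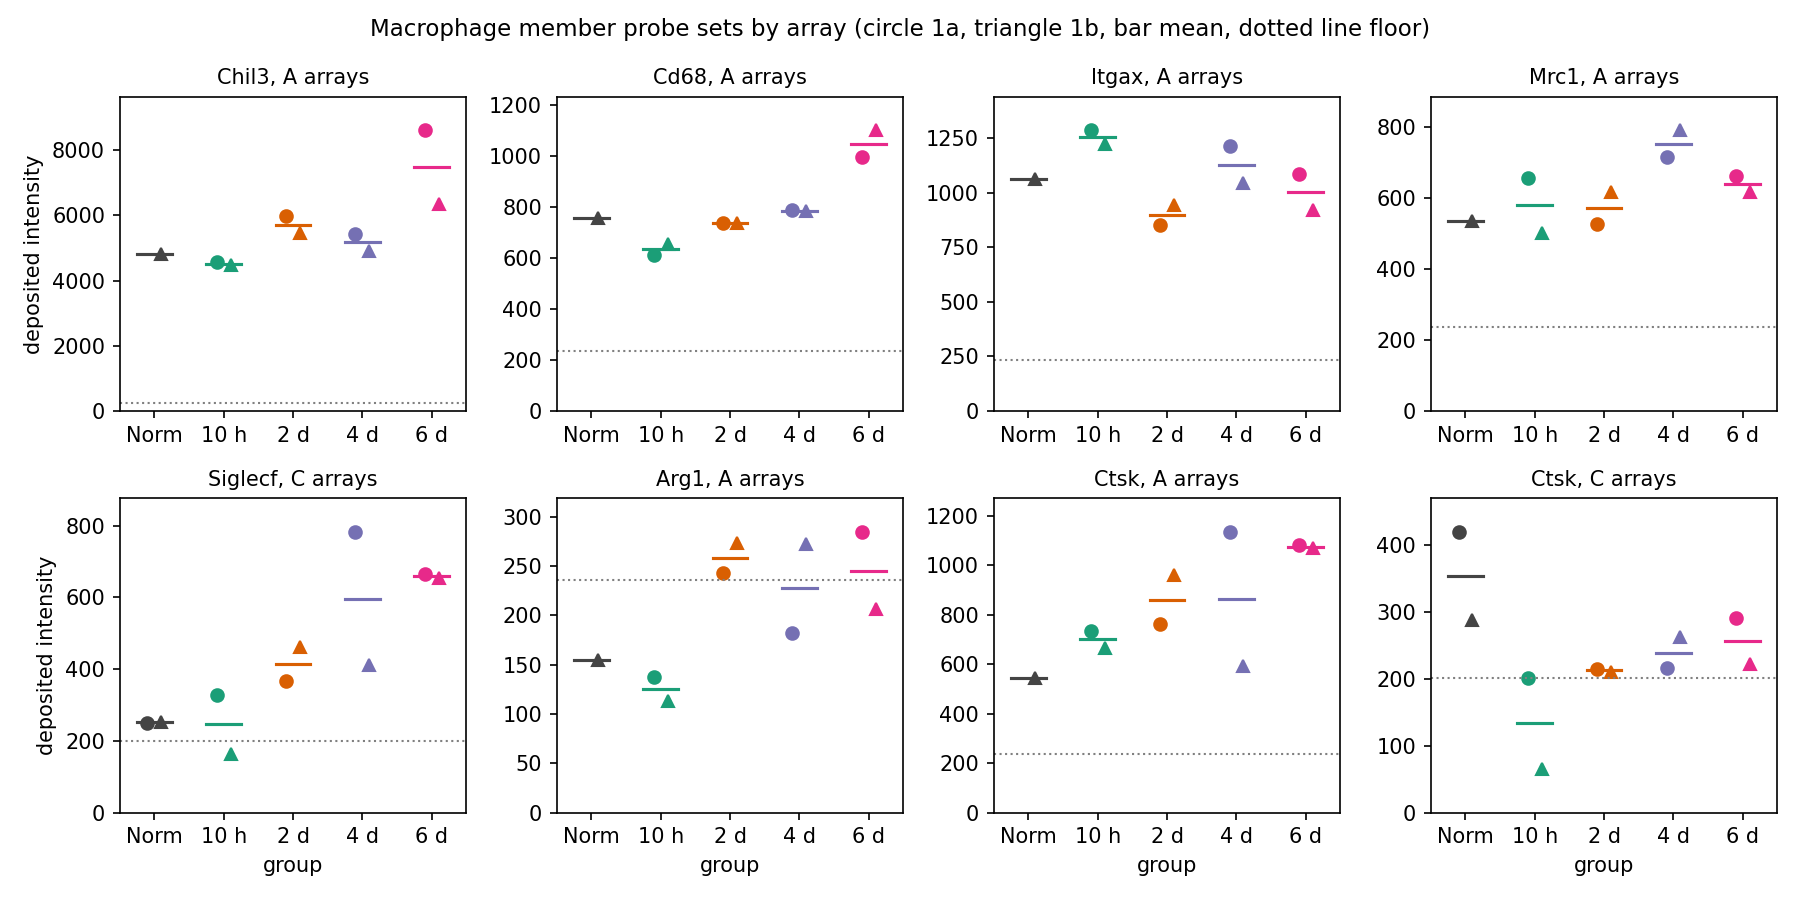
Deposited intensity of the member probe sets other than the lysozymes on each array, by group, with circles for 1a, triangles for 1b, bars for group means and dotted lines for the floor of the array type. Cd68 and Chil3 are highest on the 6 d arrays (997 and 1103, and 8609 and 6335), and the group means of Ctsk in low oxygen lie above Norm on A and below Norm on C.

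Over the 10 member probe sets tested, 4 were higher and 5 lower at 10 h, 5 and 5 at 2 d, and 8 and 2 at 4 d against Norm. Their median changes were -0.04, 0.03 and 0.10, where the median over all probe sets was 0 to 2 decimals. At 10 h, 0 members passed the test, with 1 at an unadjusted p under 0.05, and 0% of all probe sets passed. At 4 d, 0 members passed, with 1 at an unadjusted p under 0.05, against 0.00775% of all probe sets. Of all probe sets tested, 6.11% at 10 h and 6.13% at 4 d had an unadjusted p under 0.05.

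At 6 d, 7 members were higher and 3 lower against Norm, with a median of 0.36. There 0 members passed (4 at an unadjusted p under 0.05) and 0% of all probe sets, a comparison treated as used in the choice of genes. Between 10 h and 4 d, 9 were higher and 1 lower (median 0.28), with 0 past the threshold, 1 at an unadjusted p under 0.05 and 0.0233% of all probe sets. Between 2 d and 6 d all 10 were higher (median 0.29), although Lyz2 turned to -0.08 without 6 d 1a and Arg1 to -0.13 without the same sample; 1 passed (Lyz1), against 0.062% of all. From early to late times 9 were higher and 1 (Itgax) lower (median 0.28), and 1 passed (Lyz1), against 0.0155% of all. Of all probe sets tested, 9.17% at 6 d against Norm and 8.08% between 10 h and 4 d had an unadjusted p under 0.05. Since these arrays were treated as used in the choice, nothing is read from the member counts.

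**Figure D4:**
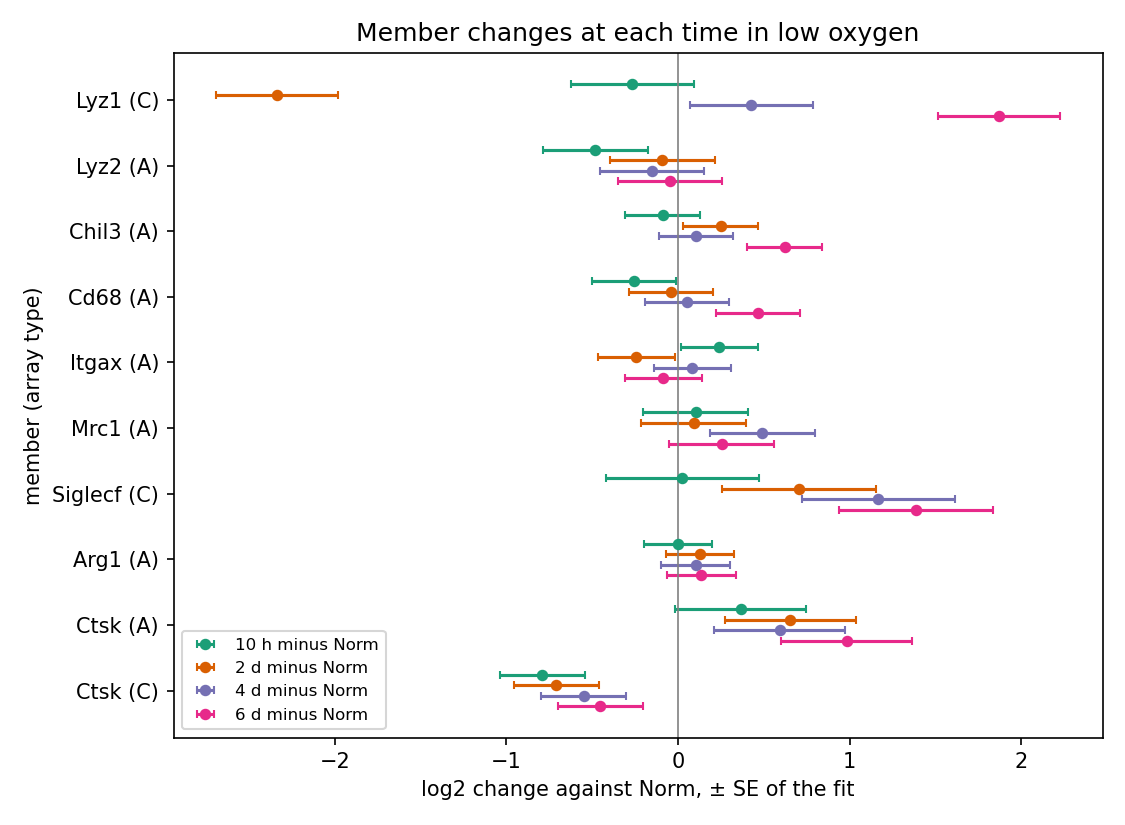
Log2 change against Norm with the SE of the fit for each member probe set tested, at 10 h, 2 d, 4 d and 6 d. Lyz1 moves from -2.34 at 2 d to 1.87 at 6 d, the Lyz2 changes lie between -0.48 and -0.05, and the C probe set of Ctsk lies below 0 at every time.

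Other macrophage genes were read from 4 lists that do not hold the members. All gene lists were chosen with earlier results of these data known, so calls within them are not independent of those results. Of 22 alveolar macrophage identity and lipid genes tested, 0 passed in any of the comparisons with Norm at 10 h, 2 d and 4 d (1, 7 and 3 at an unadjusted p under 0.05). Of all probe sets tested, 6.11%, 18.9% and 6.13% had an unadjusted p under 0.05 at these times. The median of the 22 genes was -0.12 at 2 d, with 10 higher and 12 lower. Of 37 pan-macrophage and monocyte genes, 1 passed, lower at 2 d, with a list median of -0.23, 10 higher and 26 lower. All genes tested had a median of 0.00 there, and 50.4% of them were higher. At 2 d 1.86% of all probe sets tested passed, so 1 call in such a list is not read as a result about the list.

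The pan-macrophage gene that passed was Apoe, the lipoprotein that macrophages use in cholesterol export. It read 8966 in Norm 1b, 7704 and 7953 at 10 h, 4691 and 4550 at 2 d, 8940 and 8578 at 4 d, and 9356 and 8487 at 6 d. Both 2 d arrays lay below all others, a fall by 0.96 ± 0.19 on the log2 scale against Norm (adjusted p = 0.0458). The call was lost in 7 of 9 fits that left out 1 sample: 10 h 1a (0.0646), 10 h 1b (0.0643), 2 d 1a (0.135), 2 d 1b (0.161), 4 d 1a (0.0508), 6 d 1a (0.0968) and 6 d 1b (0.0969). Its C probe set (suffix r) differed by -0.10 ± 0.76.

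Of 33 lysosomal genes, 1 passed: Ctsc, the protease that activates granule serine proteases, lower at 2 d, where 1.86% of all probe sets passed. It read 2203 in Norm 1b, 1603 and 1578 at 10 h, 1170 and 1164 at 2 d, 1946 and 1665 at 4 d, and 2097 and 1890 at 6 d. The 2 d arrays were again the lowest, a fall by 0.92 ± 0.18 (adjusted p = 0.0473), and its 3 other tested probe sets had changes of -0.76, -0.85 and -1.32. The call was lost in 7 of 9 fits that left out 1 sample: Norm 1a (0.0500005), 10 h 1a (0.0901), 10 h 1b (0.0907), 2 d 1a (0.130), 2 d 1b (0.146), 6 d 1a (0.0976) and 6 d 1b (0.0962). The part of the high Gapdh ratio at 2 d in the Apoe and Ctsc results was not tested.

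Of 19 alternative activation genes, which include the chemokine genes Ccl17 and Ccl24, 0 passed at 10 h, 2 d or 4 d (5, 5 and 2 at an unadjusted p under 0.05). They leaned higher at 10 h, by a median of 0.24 with 13 higher, and between 10 h and 4 d they leaned lower, by a median of -0.42 with 14 lower (0 passed, 6 at an unadjusted p under 0.05). Between 2 d and 6 d the medians were 0.23 for alveolar macrophage genes (16 of 22 higher), 0.29 for pan-macrophage genes (23 of 37), 0.15 for lysosomal genes (26 of 33) and -0.23 for alternative activation genes (8 of 19), with 0 past the threshold in each (8, 11, 7 and 2 at an unadjusted p under 0.05). Of all probe sets tested, 13% between 2 d and 6 d and 8.08% between 10 h and 4 d had an unadjusted p under 0.05. Between 10 h and 4 d the medians of the first 3 lists were -0.01, -0.03 and 0.08. Whether the lists differ between these comparisons was not tested.

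**Figure D5:**
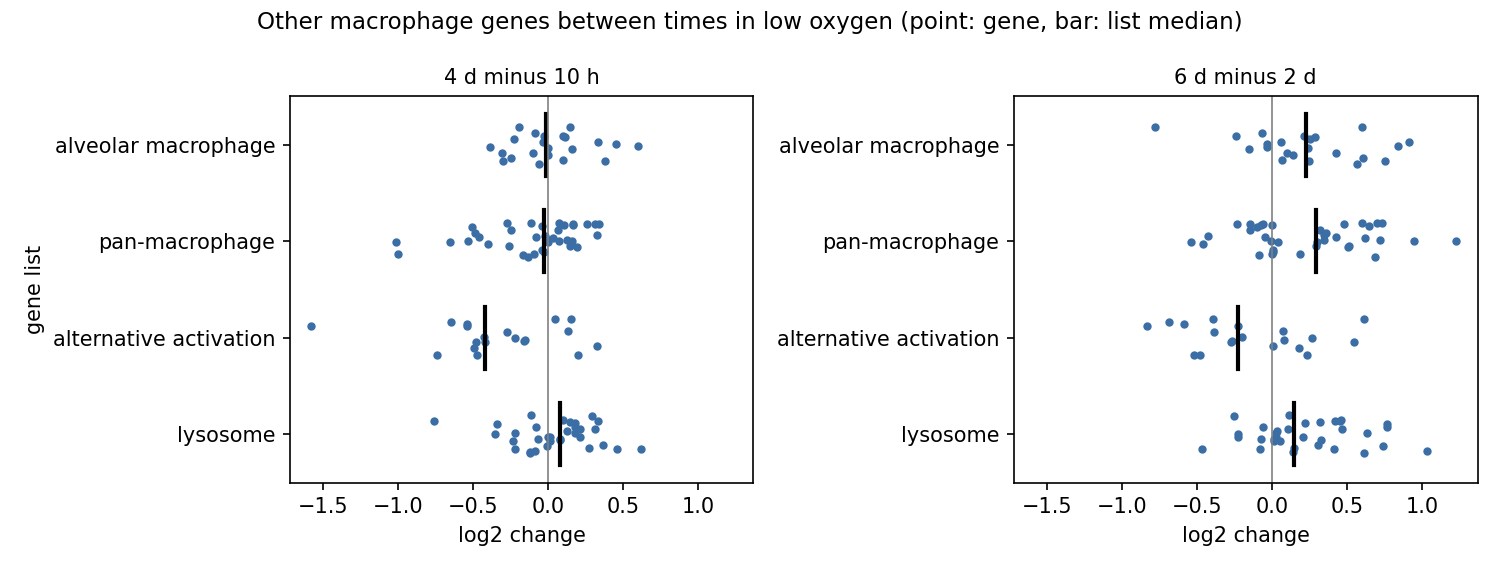
Log2 change of each gene of the 4 macrophage lists (points) with the list median (bars), between 10 h and 4 d and between 2 d and 6 d. The medians of the alveolar macrophage, pan-macrophage and lysosomal lists are -0.01, -0.03 and 0.08 in the first comparison and 0.23, 0.29 and 0.15 in the second.

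Alveolar type 2 cells also express lysozyme. The summed intensity of the 5 of their genes represented on C was 131414 to 160728 in Norm, 113532 to 124027 at 10 h, 111535 to 114794 at 2 d, 172065 to 179547 at 4 d and 178199 to 179175 at 6 d. These sums overlapped between 10 h and 2 d and between 4 d and 6 d. On A, 11 genes summed to 89776 in Norm 1b, 55347 to 82339 at 10 h, 115007 to 131212 at 2 d, 82574 to 88185 at 4 d and 95696 to 119080 at 6 d, where the highest sum was at 2 d. Bright genes weigh most in such sums of linear intensities, and Sftpc alone ran from 3316 to 42808 on A. On B, 4 genes summed to 32827 to 33421 in Norm, 25664 to 30974 at 10 h, 34778 to 36463 at 2 d, 35819 to 36720 at 4 d and 48681 to 49241 at 6 d. Between 2 d and 6 d, 17 of the type 2 genes were higher and 3 lower, with a median of 0.33. There 1 passed, against 0.062% of all probe sets, and 7 had an unadjusted p under 0.05. At 2 d against Norm, 8 were higher and 12 lower (median -0.13). Of the 20 alveolar type 2 genes tested over all array types, 1 passed at 2 d, where 1.86% of all probe sets passed. This was Etv5, a transcription factor of these cells. On the B arrays it read 3826 and 2598 in Norm, 3429 and 3133 at 10 h, 1442 and 1495 at 2 d, 4976 and 4309 at 4 d, and 4821 and 5795 at 6 d.

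Etv5 was lowest at 2 d, and its 4 d and 6 d arrays lay above all others. It fell by 1.10 ± 0.20 at 2 d against Norm (adjusted p = 0.0321) and rose by 1.85 ± 0.20 between 2 d and 6 d (adjusted p = 0.0254). The 2 d call was lost without Norm 1a (0.0635), 10 h 1a (0.0646), 10 h 1b (0.0639), 2 d 1a (0.124), 2 d 1b (0.129), 6 d 1a (0.0635) or 6 d 1b (0.0634). The later call was lost without 10 h 1a (0.106), 10 h 1b (0.107), 2 d 1a (0.0835), 2 d 1b (0.0974), 4 d 1a (0.0685), 4 d 1b (0.0619), 6 d 1a (0.217) or 6 d 1b (0.363). The part of alveolar type 2 cells in the Lyz1 values was not tested. Of all probe sets tested, 18.9% at 2 d against Norm and 13% between 2 d and 6 d had an unadjusted p under 0.05. Of 12 neutrophil genes tested, 0 passed at 2 d against Norm (1 at an unadjusted p under 0.05; 5 higher and 6 lower) or between 2 d and 6 d (5 at an unadjusted p under 0.05; 5 higher and 6 lower). The 10 represented on A summed to 7273 in Norm 1b, 7082 to 8053 at 2 d and 7511 to 7778 at 6 d, and the 2 on C to 1313 to 1695 in Norm, 810 to 1022 at 2 d and 897 to 1042 at 6 d; their part in the Lyz1 values was not tested.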

How the data were processed

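Whole lung RNA was measured on MG-U74v2 arrays. The authors deposited intensities on a linear scale, 1 per probe set and array; the summarising software is not given in the sources used here. Trimmed means (2% off each end) of 800.2 to 800.4 show a common scaling, and no further normalization was applied. 1 array titled Norm 1a of type A was left out (Spearman correlations with the arrays beside it of -0.00277 to 0.00963); pairs within a group correlated at 0.872 to 0.971. Array number limits the precision.

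Samples were grouped by title. For each array type limma 3.58.1 (R 4.3.3) fitted 5 group means to log2 of the floored intensity (lmFit, eBayes with trend, two-sided), with Benjamini-Hochberg adjustment over all array types; on A, the lone Norm array is assumed to vary as the other groups did. The fit was tested on simulated data. Symbols came from the platform annotation (1 symbol for 10855, 10603 and 7739 probe sets on A, B and C; several for 396, 178 and 150; none for 1237, 1696 and 4045). Each listed gene has 1 probe set, plain before suffixed, then the highest level. Of 256 symbols in all lists, 236 were found and 196 tested.

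The members and lists were chosen with earlier results of these data known. Named are every member, each list gene that passed where 3 or fewer did, and the 5 genes closest to each lysozyme; the marker genes and Ccl17 and Ccl24 were named beyond that rule. Alternatives were the floor, the filter, normalization, the trend, the compared groups alone, adjustment within array types, the replicate block, leaving out each sample and, added after seeing the data, a fit without the 2 d arrays.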

Additional observations from a re-analysis of the deposited data

Results flagged for a closer look

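The Lyz1 probe set on C differed between 2 d and 6 d by 4.21 ± 0.36 on the log2 scale, a direct comparison of 2 times that move to opposite sides of Norm: both 2 d arrays lay below every Norm array and both 6 d arrays above. These arrays were treated as used in the choice of genes, so the size is a description.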

How the results depend on the processing

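Among the member probe sets, the Lyz1 calls are the ones that moved. The count of member probe sets past the threshold went from 1 to 0 at 2 d against Norm with no filter on dim probe sets or with the compared groups fitted alone, between 2 d and 6 d with no variance trend or with the compared groups alone, and from early to late times with no filter or no trend. Leaving out 1 sample gave counts of 0 to 1 in each of these 3 comparisons. In the other comparisons the count was 0 under every alternative run, the fit without the 2 d arrays included. With the replicate block the count stayed 1 in each of the 3 comparisons (Lyz1 at 2 d, adjusted p = 0.0190). Arrays of all 3 were treated as used in the choice of genes, so these counts describe the processing and are no evidence for Lyz1. Equal letters did not pair the samples: deviations of same-lettered samples correlated at -0.158 to 0.134 over 26 pairs of groups, with 1 over 0.1. The block ended the 2 d calls of Apoe (adjusted p = 0.0844, limma), Ctsc (0.0689), Etv5 (0.0529) and Myh1 (0.0620). The Etv5 call between 2 d and 6 d ended as well (0.0574). Each list gene call also ended under some other processing alternative. With no variance trend Apoe (0.0610), Ctsc (0.0754), Etv5 (0.0504 and 0.0563) and Acta1 between 10 h and 4 d (0.0561) were lost. The 2 d calls of Acta1 and Myh1 stayed there. They ended with no filter (Acta1, 0.119) and with the floor at the 20th percentile (Myh1, 0.206).

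Over all probe sets the number called varied more: 23 to 733 at 2 d (480 as reported), 0 to 100 between 2 d and 6 d (16 as reported), 0 to 87 from early to late (4 as reported), 0 to 73 at 10 h (0), 0 to 61 at 4 d (2), 0 to 64 at 6 d (0) and 0 to 116 between 10 h and 4 d (6). The causes were not tested. Without Norm 1b no A member has a value against Norm. The planned difference of Lyz1 and Lyz2 within an array was not run, since they lie on different array types. Signals near the floor limit Arg1, Siglecf and the C probe set of Ctsk.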

Other observations

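Over the 10 C arrays, the 5 genes whose log2 level correlated most with Lyz1 among 4716 were Taok1, a protein kinase (Pearson r = 0.930), Gsap (0.910), Anapc15, a subunit of the anaphase-promoting complex (0.900), Sgpp2, a sphingosine phosphate phosphatase (0.891), and Cdk12, a kinase of transcription (0.884). Each had its lowest group mean at 2 d; Taok1 ran from 8.14 to 10.32 on the log2 scale. The arrays share their 2 d libraries with the high Gapdh ratio.

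Over the 9 A arrays, the closest to Lyz2 among 6270 genes were Npc2, a cholesterol carrier of the lysosome (r = 0.962), Emp3 (0.943), H2-K2 (0.943), Gpx3, a secreted glutathione peroxidase (0.939), and Lamp1, a lysosome membrane protein (0.928). All 5 had their lowest group mean at 10 h, as Lyz2 did in the deposited values. The highest intensity of any probe set was 14170 on 10 h 1a and 21992 on 10 h 1b, against 23383 on Norm 1b. The part of this difference in scale in the shared low level was not tested. These correlations are descriptions of arrays that fall into groups and carry no test.

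Of 9 skeletal muscle genes, 0 passed at 10 h against Norm, with a median of -1.35. There 5 had an unadjusted p under 0.05, against 6.11% of all probe sets. Acta1 differed there by -4.69 ± 0.44 (adjusted p = 0.0743, limma), with Norm 1b as the only Norm array. It was above the floor on 7 of 9 A arrays, and the 10 h arrays were at the floor. The sizes of its changes from 10 h are therefore bounds only, here and between 10 h and 4 d. At 2 d, where 1.86% of all probe sets passed, 2 passed lower: Acta1, the skeletal actin, by -2.72 ± 0.44 (adjusted p = 0.0298), and Myh1, a fast myosin chain, by -1.28 ± 0.22 (adjusted p = 0.0321). Each call was lost in 6 of 9 fits that left out 1 sample (either sample of 10 h, 2 d or 6 d), with adjusted p up to 0.119 for Acta1 and 0.136 for Myh1. Between 10 h and 4 d, where 0.0233% of all passed, Acta1 rose by 3.45 ± 0.36 (adjusted p = 0.0386), a call lost in 7 of 10 such fits (either sample of 10 h, 2 d or 6 d, or 4 d 1b; up to 0.181).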
